A study of Homo sapiens with 2 samples.

Results

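The genes described here encode 9 enzymes of serine synthesis, the folate cycle and thymidylate synthesis: PHGDH, PSAT1, PSPH, SHMT1, SHMT2, MTHFD1, MTHFD2, MTHFD1L and TYMS. They were taken by gene symbol from 51640 symbols, all 9 were found with a single row each, and all had a usable value in both libraries. The study sequenced RNA from HCT116, an established epithelial cell line from a human colon cancer, grown in DMEM with fetal bovine serum and antibiotics. Its only group is untreated HCT116 with 2 libraries, called PF and PJ in the titles and biological replicates in the design text; what the letters mean is not given. No treated or normal group was analysed here, so the data show how much of each transcript this line held and how far its replicates differed. Values are FPKM, fragments divided by transcript length and by the total mapped in the library, so that levels of different genes can be compared within a library.

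Cells make serine from the glycolytic intermediate 3-phosphoglycerate through PHGDH, PSAT1 and PSPH in turn. Serine hydroxymethyltransferase, SHMT1 in the cytosol and SHMT2 in mitochondria, then passes a carbon unit from serine to tetrahydrofolate and leaves glycine. MTHFD2 and MTHFD1L carry that unit to formate in mitochondria, and MTHFD1 takes up formate in the cytosol, where the folate-bound carbon serves purine synthesis, methionine and, through TYMS, the methylation of dUMP to dTMP for DNA. Tumour cells and other dividing cells commonly use the mitochondrial branch, and antifolate and fluoropyrimidine drugs used in colorectal cancer act on this cycle.

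Both libraries held epithelial transcripts, though not at equal levels. All 5 epithelial genes looked at passed 1 FPKM in both, with EPCAM at 213 FPKM in library PF and 143 in library PJ, KRT8 at 760 and 280, KRT18 at 216 and 147, KRT19 at 306 and 325, and CDH1 at 21.9 and 1.80. Of these, KRT19 alone was higher in PJ. CDH1 in PF was 12.2 times its level in PJ, where it was below the fibroblast gene COL1A1. Of 12 fibroblast, immune and endothelial genes 1 passed, COL1A1 at 7.28 and 2.93 FPKM; all 4 immune and all 3 endothelial genes were under 1 FPKM in both, among them PTPRC at 0.0734 and 0.000256 and KDR at 0.137 and 0.0507. The libraries stood apart from each other beyond these markers. The median PJ to PF ratio was 1.19 over symbols at 1 FPKM or more in both, a shift of 0.25 on the log2 scale. Among the 15736 symbols averaging at least 1 FPKM, PJ exceeded PF by 2-fold or more in 10.4% and PF exceeded PJ by as much in 5.22%, on the scale of log2(FPKM + 1); with the median ratio divided out the shares were 6.29% and 7.14%. With 1 library on each side, none of the differences between PF and PJ has a test.

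The enzymes of serine synthesis and the folate cycle were all well expressed. Each of the 9 reached 10 FPKM in both libraries, as did 7247 of 51609 symbols with a value and 6063 of 19038 protein-coding symbols. At 1 FPKM in both, the shares of symbols were 27.9% and 57.3%. Their means formed an upper tier of TYMS, MTHFD2 and SHMT2 between 145 and 281 FPKM, and a lower tier of MTHFD1L, PSAT1, MTHFD1, SHMT1, PHGDH and PSPH between 33.8 and 64.3. The tiers did not overlap in either library: the highest value of the lower tier was 74.6 FPKM for MTHFD1L in PJ and the lowest of the upper tier 138 for SHMT2 in PF. For scale, 7.36% of symbols that reached 1 FPKM in both libraries also reached 100 FPKM in both.

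**Figure D1:**
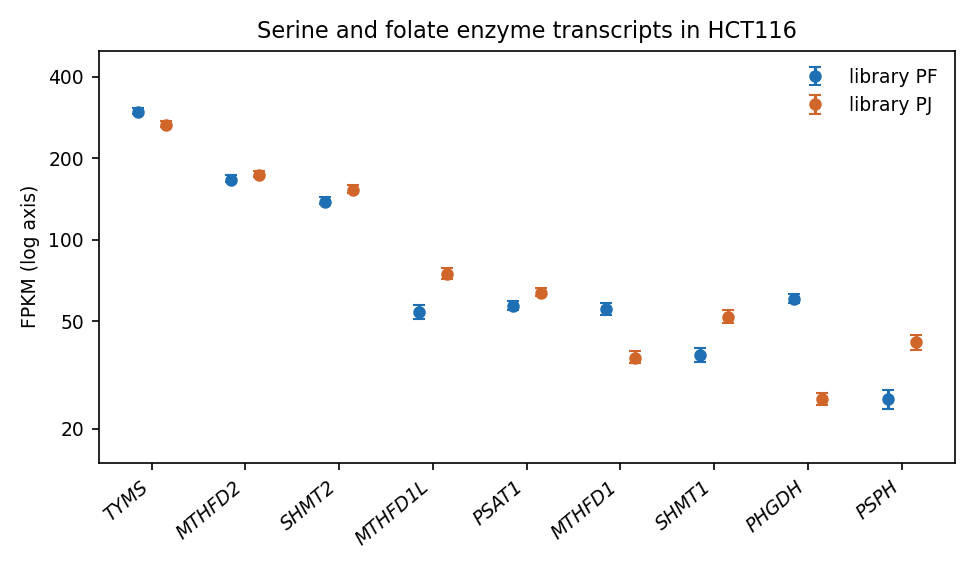
FPKM on a log axis for the 9 enzyme genes in library PF (blue) and library PJ (orange), ordered by mean; bars are the deposited 95% bounds of each estimate within its library. TYMS, MTHFD2 and SHMT2 lie at 138 FPKM or more in both libraries and the other 6 at 74.6 or less, and PHGDH has the widest gap between the libraries.

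PHGDH, the dehydrogenase that commits 3-phosphoglycerate to serine, differed most between the libraries. It lies on chromosome 1 (ENSG00000092621.7; hg19, 120202421 to 120286838) and measured 60.7 FPKM in library PF, with bounds of 58.5 to 63.0, and 25.8 in library PJ, with bounds of 24.5 to 27.3. The mean was 43.3 ± 24.6 FPKM (SD, n = 2). PF was thus 2.35 times PJ, a log2 ratio of -1.20, or -1.44 after the overall shift was divided out. In library PF it was the highest of the 3 serine synthesis genes, with bounds that overlapped those of PSAT1, and in PJ it was the lowest.

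PSAT1, the aminotransferase of the next step, was nearly level. On chromosome 9 (ENSG00000135069.9; hg19, 80912059 to 80945009), it measured 56.8 FPKM (55.1 to 59.3) in library PF and 63.8 (61.9 to 66.6) in library PJ, with a mean of 60.3 ± 4.97 (SD, n = 2). PSPH, the phosphatase that releases serine, went the other way from PHGDH. On chromosome 7 (ENSG00000146733.9; hg19, 56078744 to 56119297), it measured 25.8 FPKM (23.8 to 27.8) in library PF and 41.9 (39.3 to 44.4) in library PJ, with a mean of 33.8 ± 11.4 (SD, n = 2) and a log2 ratio of 0.68. The 3 enzymes of this linear route were therefore not displaced alike between the cultures: PHGDH was lower, PSAT1 close and PSPH higher in PJ. The pseudogene PSPHP1 (chromosome 7, 55832490 to 55840981) was listed at 29.6 and 39.2 FPKM, as high as PSPH, and reads may be split between the copies, so the PSPH value is uncertain. Adding the pseudogene to PSPH, a choice made after seeing the data, gave a log2 ratio of 0.54. Both loci were higher in PJ, so the sum could not change the direction and does not settle how reads were split.

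The promoters of PHGDH and PSAT1 are shown because these consecutive enzymes separated between the libraries; those of MTHFD1 and MTHFD1L, which sit on either side of the formate exchange, are shown for the same reason. The letters are RefSeq's on GRCh38.p14, a later build than the hg19 of the expression tables, and cover the 250 bases before the annotated start on the plus strand, 5′ to 3′. Capitals mark the CCAAT box (spelled by its name), the GC box (GGGCGG) and the E-box (CACGTG), each searched on both strands; no printed match overlaps another. For MTHFD1L, which has 4 annotated starts, the stretch before the most upstream one is given. A CACGTG that begins at the last base of that stretch crosses the start and is left unmarked.
PHGDH, chr1:119711684-119711933: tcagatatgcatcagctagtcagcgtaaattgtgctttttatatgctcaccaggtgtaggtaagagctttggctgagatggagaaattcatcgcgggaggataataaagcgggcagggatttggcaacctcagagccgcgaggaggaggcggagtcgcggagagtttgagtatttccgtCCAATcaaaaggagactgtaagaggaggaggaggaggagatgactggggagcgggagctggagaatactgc
PSAT1, chr9:78296875-78297124: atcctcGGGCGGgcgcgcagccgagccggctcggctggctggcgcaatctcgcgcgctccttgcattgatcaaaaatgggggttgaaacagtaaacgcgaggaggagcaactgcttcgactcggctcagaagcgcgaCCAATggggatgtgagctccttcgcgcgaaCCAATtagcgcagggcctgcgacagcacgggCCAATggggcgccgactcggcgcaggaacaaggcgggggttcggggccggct
MTHFD1, chr14:64388103-64388352: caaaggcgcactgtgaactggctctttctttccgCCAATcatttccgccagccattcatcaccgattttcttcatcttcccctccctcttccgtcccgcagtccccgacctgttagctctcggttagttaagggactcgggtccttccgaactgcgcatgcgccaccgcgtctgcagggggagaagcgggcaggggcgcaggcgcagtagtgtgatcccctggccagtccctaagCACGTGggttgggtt
MTHFD1L, chr6:150866083-150866332: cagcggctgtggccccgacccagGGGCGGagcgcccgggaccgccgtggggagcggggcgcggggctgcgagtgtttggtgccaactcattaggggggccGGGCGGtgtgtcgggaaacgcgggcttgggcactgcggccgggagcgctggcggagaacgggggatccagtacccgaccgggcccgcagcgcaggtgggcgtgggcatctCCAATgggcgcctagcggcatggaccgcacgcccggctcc

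RefSeq windows of 300 bases, 250 before and 50 after a start, were found for 7 of the 9 genes; PSPH and SHMT2 had no entry. CCAAT was present in a window of 6 of the 7 genes, against 39.7% of the 27305 genes in the table, with TYMS the gene without a match. PHGDH had 1 match, 71 bases before the start. PSAT1 had 3, at 113, 83 and 52 bases before it. GGGCGG occurred for PSAT1, SHMT1 and MTHFD1L (48.3% of all genes) and CACGTG for MTHFD1 and MTHFD1L (8.77%). The core of the C/EBP-ATF composite element, TGATGNAA, through which ATF4 acts on amino acid genes, was found among the 7 genes for MTHFD1L alone, against 4.46% of all genes. It lay in 3 of the 4 MTHFD1L windows, beginning at base 25 when the most upstream start is base 1, and before the next starts. That site is shown with its match in capitals, since ATF4 is a known activator of this pathway.
MTHFD1L, chr6:150866346-150866375: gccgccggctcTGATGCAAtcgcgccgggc
These are letter matches in short windows that say nothing of binding. CCAAT was found for all of the genes printed above, PHGDH, PSAT1, MTHFD1 and MTHFD1L. Any link between these letters and the difference between the libraries was not tested. The ATF4 transcript itself measured 377 FPKM (375 to 389) in library PF and 276 (273 to 285) in library PJ.

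Both hydroxymethyltransferases were somewhat higher in PJ as deposited, and the mitochondrial one was the more abundant transcript in each library. SHMT2, on chromosome 12 (ENSG00000182199.6; hg19, 57623110 to 57628718), measured 138 FPKM (135 to 144) in library PF and 152 (150 to 159) in library PJ, a mean of 145 ± 10.2 (SD, n = 2). SHMT1, on chromosome 17 (ENSG00000176974.12; hg19, 18231187 to 18266856), measured 37.6 FPKM (35.3 to 39.9) in library PF and 52.1 (49.2 to 54.9) in library PJ, a mean of 44.8 ± 10.2 (SD, n = 2). The SHMT2 to SHMT1 ratio was 3.67 in PF and 2.93 in PJ. With the bounds of both genes taken in, it lay between 2.72 and 4.09 over the libraries, always above 1.

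MTHFD2, the mitochondrial dehydrogenase and cyclohydrolase, differed least between the libraries as deposited; with the overall shift divided out, the log2 ratios of PSAT1 and SHMT2 lay nearer 0 (-0.08 and -0.10) than that of MTHFD2 (-0.19). On chromosome 2 (ENSG00000065911.7; hg19, 74425689 to 74444692), it measured 167 FPKM (164 to 173) in library PF and 174 (171 to 180) in library PJ, a mean of 170 ± 4.81 (SD, n = 2). It was also the only member whose bounds, as deposited, overlapped between the libraries. MTHFD1L, the mitochondrial synthetase that releases formate, was lower and less even. On chromosome 6 (ENSG00000120254.11; hg19, 151186685 to 151423023), it measured 54.1 FPKM (50.9 to 57.5) in library PF and 74.6 (71.4 to 78.6) in library PJ, a mean of 64.3 ± 14.4 (SD, n = 2). MTHFD1, the cytosolic enzyme that combines these activities in a single protein, had the opposite order. On chromosome 14 (ENSG00000100714.9; hg19, 64854749 to 64926725), it measured 55.3 FPKM (52.7 to 58.3) in library PF and 36.6 (34.9 to 38.8) in library PJ, a mean of 45.9 ± 13.2 (SD, n = 2). PF was 1.51 times PJ, a log2 ratio of -0.58, or -0.82 with the overall shift divided out.

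TYMS, thymidylate synthase, had the highest level of the 9 in both libraries. On chromosome 18 (ENSG00000176890.11; hg19, 657604 to 673578), it measured 296 FPKM (293 to 306) in library PF and 266 (262 to 275) in library PJ, a mean of 281 ± 21.0 (SD, n = 2). That placed it at rank 414 of the 14404 symbols expressed in both libraries, within the top 2.87%. MTHFD2 and SHMT2 stood at ranks 732 and 856, and PSPH, the lowest of the 9, at rank 3670. ENOSF1, on the opposite strand, shares its end with TYMS (967 exon bases in GENCODE 29) and was at 18.3 and 29.9 FPKM; the labels do not say that strand was kept, so reads from the shared stretch cannot be told apart.

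In the order of means, TYMS, MTHFD2 and SHMT2 were separated from each other and from the rest without overlap between libraries. Below them the neighbours MTHFD1L and PSAT1, MTHFD1 and SHMT1, SHMT1 and PHGDH, and PHGDH and PSPH overlapped, so their order is not settled by these libraries. PSAT1 and MTHFD1 did not overlap, but their means differed by hardly more than the SD of MTHFD1. The summed FPKM of the 9 genes as deposited was 891 in PF and 887 in PJ, with most of it from TYMS, MTHFD2 and SHMT2. With the median ratio of 1.19 divided out, the PJ sum would be lower than that of PF.

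Between libraries, 1 of the 9 genes, PHGDH, was at least 2-fold lower in PJ and 0 were at least 2-fold higher. Over the 3298 symbols whose mean lay within the range of these 9, 2.97% were at least 2-fold lower and 6.37% at least 2-fold higher. A single gene is too few to read against either share. As deposited, 6 of the 9 were higher in PJ (65.8% of all symbols tested), and the median log2 ratio was 0.14, beside 0.22 for all symbols tested. With the overall shift divided out, PSPH, SHMT1 and MTHFD1L remained higher and the other 6 were lower: PSAT1, SHMT2 and MTHFD2 changed sign, to -0.08, -0.10 and -0.19. Of all 15736 symbols tested, 7944 were then higher and 7792 lower. Bounds as deposited, without that division, were apart for 8 of the 9 genes, with MTHFD2 the exception. They were also apart for 62.7% of all symbols tested and 76.9% of those in the same range of means. Bounds that do not meet are therefore ordinary for genes at this level. The half-width of the bounds was 2.20% to 7.69% of the FPKM over the 9 genes and covers the estimate within a library only.

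**Figure D2:**
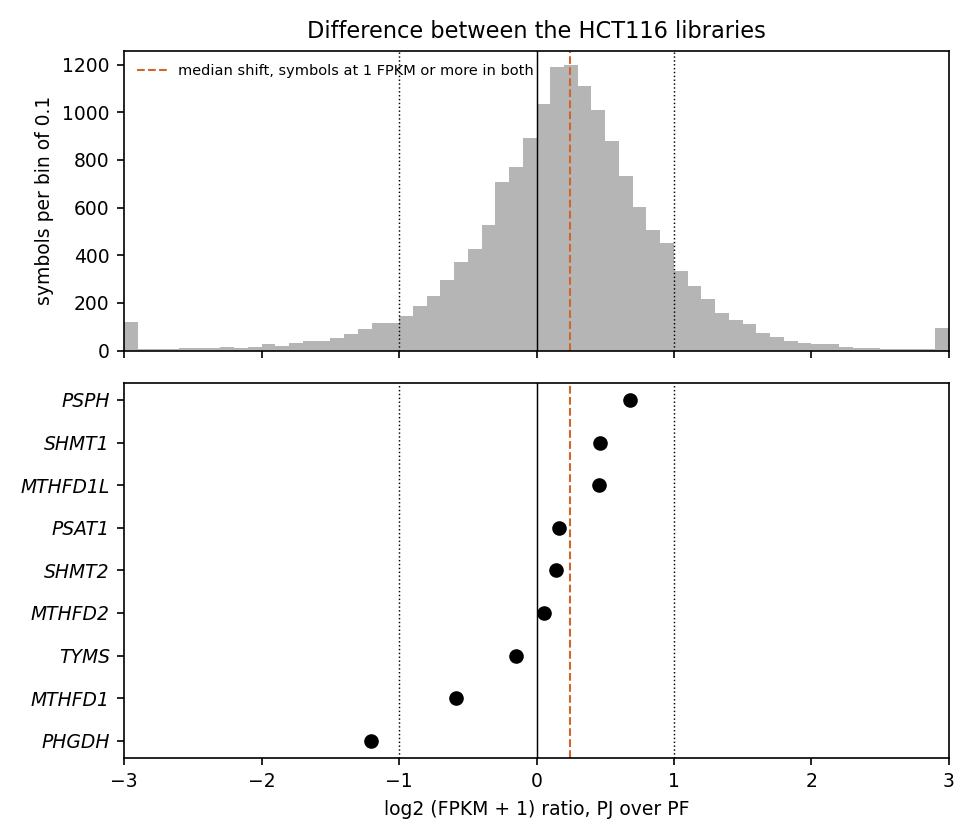
Upper panel, number of symbols per bin of the log2(FPKM + 1) ratio of PJ over PF for the 15736 symbols averaging at least 1 FPKM; the end bins also hold all symbols beyond the axis. Lower panel, the 9 enzyme genes on the same axis, with dotted lines at a 2-fold difference and the dashed line at the median shift of 0.25; PHGDH at -1.20 is the only one past a dotted line, and PSPH at 0.68 is the highest.

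Ratios taken within a library do not depend on how the libraries are scaled to each other, and they show the separation of PHGDH and MTHFD1 from their partners. PSAT1 to PHGDH was 0.94 in PF and 2.47 in PJ. PSPH to PHGDH was 0.42 in PF and 1.62 in PJ, 3.82 times as high in PJ. For the folate enzymes, MTHFD1L to MTHFD1 was 0.98 in PF and 2.04 in PJ, and MTHFD2 to MTHFD1 was 3.02 and 4.75. SHMT2 to SHMT1 differed the other way, at 3.67 and 2.93. In all 5 ratios the ranges set by the bounds did not meet between the libraries, but the share for other gene pairs was not computed. For single genes in this range of means, bounds were already apart for 76.9% of symbols. All but SHMT2 to SHMT1 also share PHGDH or MTHFD1, so they are not 5 separate observations. PHGDH thus exceeded PSPH in PF and fell short of it in PJ, while SHMT2 exceeded SHMT1 and MTHFD2 exceeded MTHFD1 in both.

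**Figure D3:**
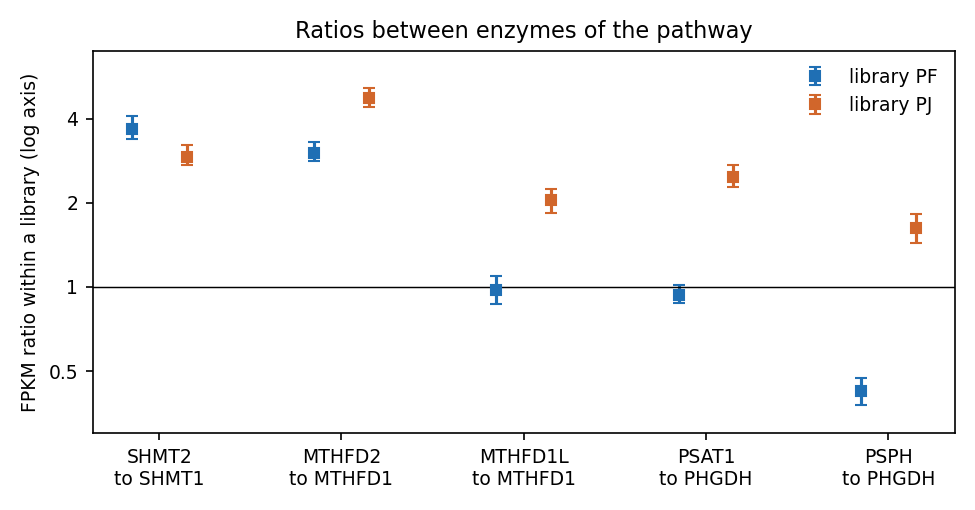
FPKM ratio of enzyme pairs within library PF (blue) and library PJ (orange) on a log axis; bars run from the lower bound of the first gene over the upper bound of the second to the reverse. SHMT2 to SHMT1 and MTHFD2 to MTHFD1 lie above 2.72 in both libraries, whereas the ratios to PHGDH lie below or around 1 in PF and at 1.62 and 2.47 in PJ.

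Around these enzymes, the genes of folate handling, purine and deoxynucleotide synthesis and the methionine cycle were mostly expressed. Of 56 further pathway genes in 7 lists, 55 had a value and 40 reached 1 FPKM in both, beside 57.3% of all protein-coding symbols with a value. Purine synthesis, which consumes formyl-folate, passed with 5 of 5: ADSL at 69.8 FPKM in library PF and 118 in library PJ, ATIC at 73.0 and 82.3, GART at 70.1 and 74.8, and PFAS lowest at 16.5 and 31.6. The remaining purine gene, PAICS, had a failed estimate in both tables and is missing. Deoxynucleotide supply passed with 8 of 8. Thymidine kinase TK1, the salvage route to the product of TYMS, was at 283 and 230 FPKM, close to TYMS itself, followed by the ribonucleotide reductase subunits RRM2 at 151 and 198 and RRM1 at 100.3 and 93.7, and thymidine phosphorylase TYMP, with the lowest mean, at 15.6 and 17.8. The estimates of RRM2, SLC25A32, MTHFS, SFXN1 and, in PF, PPAT lay outside their own bounds.

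Folate uptake and retention passed with 6 of 8. GGH, which trims folate polyglutamates, was at 53.3 FPKM in library PF and 76.0 in library PJ, the mitochondrial folate carrier SLC25A32 at 33.9 and 49.9, and FPGS, which adds glutamates, at 44.9 and 35.5. FOLR2, a folate receptor with the lowest mean of the list, was at 0.0128 and 0.00520, with lower bounds of 0. Other folate-converting enzymes passed with 5 of 9, near the share of all protein-coding symbols. Among them were MTHFS at 25.2 and 49.6 and MTFMT, which formylates mitochondrial initiator tRNA, at 24.6 and 30.0. ALDH1L1, which oxidises formyl-folate in the cytosol and had the lowest mean of the list, was at 0.0781 and 0.195. MTHFD2L, the close relative of MTHFD2, was at 6.73 and 8.08 FPKM against 167 and 174 for MTHFD2.

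The methionine cycle and transsulfuration passed with 6 of 11, near the share of all protein-coding symbols. AHCY, which clears S-adenosylhomocysteine, was at 152 FPKM in library PF and 182 in library PJ, MAT2A at 43.0 and 93.8, and MAT2B at 37.1 and 39.3. CBS, the entry to transsulfuration, was at 0.0802 and 0.0470 and BHMT, a betaine methyltransferase with the lowest mean of the list, at 8.48e-06 and 0.0445. Glycine and choline routes passed with 5 of 7, led by DLD at 55.5 and 75.7, GCSH at 41.3 and 51.9, and GCAT at 28.1 and 46.0. GLDC, the decarboxylase of the glycine cleavage system, had the lowest mean of the list at 0.809 and 1.02; of this complex, DLD and GCSH were expressed well above GLDC and AMT (1.72 and 0.649). Serine transport and use passed with 5 of 7: SFXN1, which carries serine into mitochondria, at 70.7 and 80.6, SLC1A5 at 57.6 and 72.9, and SRR at 14.7 and 12.2, with the serine dehydratase SDS at 0.0925 and 0.0785.

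Among the 41 of these pathway genes averaging at least 1 FPKM, 2 were 2-fold or more above PF in library PJ and 1 was 2-fold or more below it. Over all symbols tested the shares were 10.4% and 5.22%, and counts this small cannot be read against them. The higher ones were SLC46A1, the proton-coupled folate transporter, at 2.80 FPKM in library PF and 9.43 in library PJ (log2 ratio 1.46), and MAT2A, which makes S-adenosylmethionine (1.11). The lower one was RRM2B, the p53-inducible ribonucleotide reductase subunit, at 30.6 and 14.0 (-1.08). With the overall shift divided out, SLC46A1 alone remained 2-fold higher, and RRM2B was joined by others as 2-fold lower, among them FOLR1 and CTH. The shares of all symbols tested were then 6.29% higher and 7.14% lower. FOLR1, a folate receptor, was at 3.28 and 1.26 FPKM. CTH, the last enzyme of transsulfuration, was at 9.74 and 5.11. The median log2 ratio of the 41 genes was 0.23, beside 0.22 for all symbols tested. As deposited, 5 of 5 purine genes and 3 of 8 deoxynucleotide genes were higher in PJ, beside 65.8% of all symbols tested. Divided by the shift, the counts were 3 of 5 and 2 of 8, beside 7944 of all 15736 symbols tested. The difference between these lists was not tested.

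**Figure D4:**
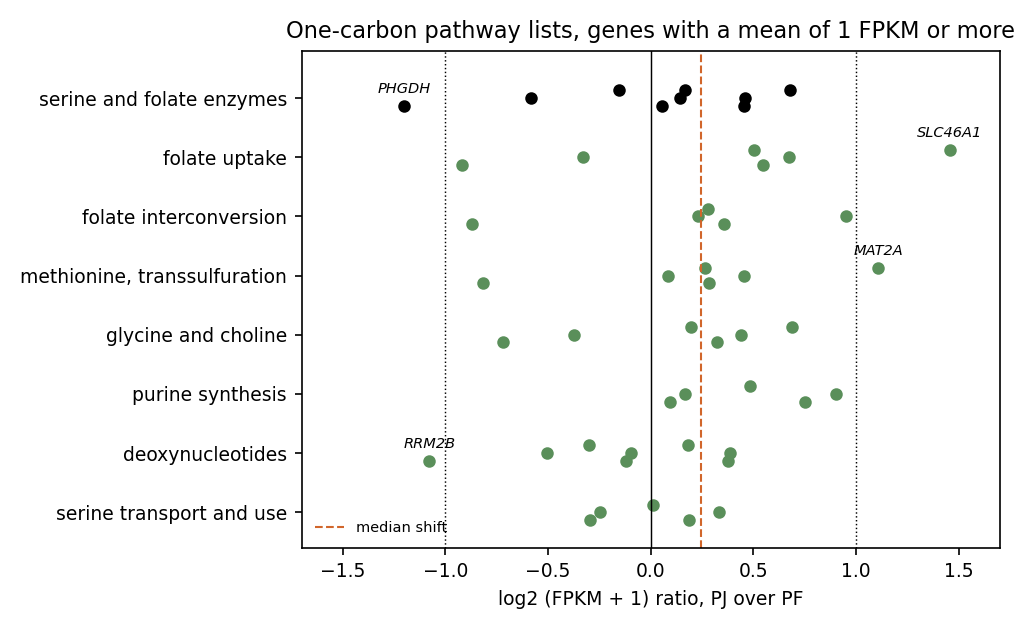
Log2(FPKM + 1) ratio of PJ over PF for each gene averaging at least 1 FPKM, by list, with the 9 enzymes in black and the wider lists in green; vertical position within a list only separates points. Dotted lines mark 2-fold differences and the dashed line the median shift of 0.25; PHGDH, RRM2B, SLC46A1 and MAT2A are the named genes beyond the dotted lines.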

How the data were processed

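RNA from 2 HCT116 cultures was sequenced as paired-end TruSeq V2 libraries, per the labels' protocols. Reads were processed with TopHat2 2.0.8b, TopHat and Cufflinks on hg19, per the submitters' processing notes; the version of Cufflinks and its annotation: not given in the sources used here. For each library, the authors deposited a table of FPKM with 95% bounds and a status, per the file headers. Estimates with status FAIL (23 in PF, 20 in PJ) were treated as missing. The number of fragments is unknown. The upper bounds of genes under 200 bp listed at 0, times span, gave a normalising total in PF 1.04 times that of PJ, if those bounds stand for the same count.

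FPKM of rows with the same symbol were summed. Expressed means 1 FPKM or more in both libraries, and ratios use a pseudocount of 1, which understates the change of low genes. Gene types, strands and shared exons came from GENCODE 29 (GRCh38), matched by identifier for 88.7% of genes. The text names all 9 members, by mean over both libraries the 3 highest and the lowest, any 2-fold different gene of each wider list, and the marker genes; MTHFD2L, AMT, CBS, PPAT, PAICS, FOLR1 and CTH were added after their values were seen. A few genes selected this way are not reported here. The members and lists were chosen with earlier results of these data known. No test between groups was run, since the design has a single group. The counting of 2-fold differences was checked on simulated libraries with known changes. Those changes were well beyond 2-fold, so the check did not cover values near that cut. Computations used Python 3.11.15, numpy 2.4.6 and pandas 2.3.3.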

Additional observations from a re-analysis of the deposited data

How the results depend on the processing

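All 9 enzyme genes reached 10 FPKM in both libraries, which fixes that they also pass 0.5 and 5 FPKM and pass in either library alone. Their lower bounds passed 1 FPKM as well. Since all 9 had a usable value, keeping failed estimates as listed could not act on them. Under each of 8 alternatives of pseudocount, filter, scaling and row choice, PHGDH was the 1 gene at least 2-fold lower in PJ, and 0 were 2-fold higher. The filters and the row choice could not change any of the 9, which have a single row each and means of 33.8 FPKM or more. Only the pseudocounts and scalings could act. The log2 ratio of PHGDH ran from -1.44 to -1.09. The median log2 ratio of the 9 ran from -0.11 to 0.14 and was negative when PJ was divided by the median or the upper quartile ratio. PSAT1, SHMT2 and MTHFD2 changed sign under those 2 scalings, and the other 6 genes kept theirs. Rescaling to the sum over genes spanning 200 bp or more shifted PJ by only 0.03 (log2). Of the wider pathway genes, dividing by the median ratio left 1 at least 2-fold higher and 4 at least 2-fold lower in PJ. The shares of all symbols tested were 6.29% and 7.14%. Between 35 and 44 of them were expressed under the other thresholds, and 41 to 42 in either library alone. No paired analysis was possible because the samples form a single group. The number of fragments is unknown, and the lower bounds of values under 1 FPKM often reach 0.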

Other observations

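Several loci share sequence or position with the enzyme genes. Beside PSPHP1, 6 other rows were named as copies of 3 of the genes: PSAT1P3 was at 4.69 FPKM in library PF and 5.31 in library PJ, 8.26% and 8.32% of PSAT1, and MTHFD1P1 at 3.68 and 2.44, 6.66% and 6.68% of MTHFD1. SHMT1P1 was at 0.987 and 1.23 FPKM and PSAT1P4 at 1.17 and 0.991. The MTHFD1 copy was thus lower in PJ in the same proportion as MTHFD1 itself; whether its reads came from MTHFD1 was not tested.

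The processed pseudogene RP1-292B18.1 lies within the span of MTHFD1L (chromosome 6, hg19, 151420665 to 151421069) and shares 0 exon bases with it in GENCODE 29. It was listed at 165 FPKM (154 to 176) in library PF and 181 (170 to 193) in library PJ, or 305% and 243% of MTHFD1L, with status LOWDATA in both. The gene of which it is a copy was not identified here. Other overlapping loci above 1 FPKM in at least 1 library were RP1-178F10.3 at SHMT1 (2.87 and 7.05), ZBTB25 (4.68 and 5.20) and CTD-2555O16.2 (2.64 and 0.895) at MTHFD1, ENSG00000218996.1, a processed pseudogene with status LOWDATA, at MTHFD1L (0.965 and 1.74), and C18orf56 at TYMS (1.18 and 1.38).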
